A study of Mus musculus with 10 samples.

Results

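Stab1, Stab2, Lyve1, Clec4g, Mrc1, Fcgr2b, Oit3, Gpr182 and Dnase1l3 are 9 genes by which the endothelium of the liver sinusoids is recognised, most of them receptors that take material up from the blood. They were chosen by name, from what is known of these cells and with earlier results of these data known, and are 9 of the 24016 RefSeq transcripts measured by RNA sequencing in whole mouse liver. All 9 passed the filter on low values. The livers came from 10 male C57BL/6 mice, 8 to 12 weeks old, which all received an adenovirus of serotype 5 into the tail vein. In the 5 mice of the AdVEGF group the vector expressed VEGF-A165 under the CMV promoter, and in the 5 mice of the AdCMV group it held the same promoter and no transgene. The CMV promoter is active in many cell types, so the labels do not tie the VEGF to a particular liver cell. Tissue was taken on day 6, after perfusion with PBS, and the RNA was depleted of ribosomal RNA. The comparison of AdVEGF with AdCMV asks how the livers changed when VEGF, the main growth factor of blood vessel endothelium, was raised.

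Sinusoidal endothelial cells line the capillaries of the liver, which have open pores and no continuous basement membrane. They are among the most active endocytic cells of the body and clear hyaluronan, denatured collagen, modified lipoproteins, glycoproteins and small immune complexes from the blood through scavenger receptors, lectins and an Fc receptor. Capillaries of most other organs lack these receptors and carry genes such as Cd34 and Emcn, and sinusoidal cells that lose their character in disease or culture tend to shift toward that type.

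RPKM, the deposited unit, gives the reads of a transcript divided by its length and by the depth of the library. The library totals recovered from the RPKM values ranged from 5596564 to 13493999 reads. A count of 3 reads is worth 0.222 to 0.536 RPKM where a transcript is 1 kb long, and each value of the 9 genes rests on 35 to 1486 reads. The 21 major urinary protein (Mup) genes of hepatocytes took 18.0% to 50.5% of the reads in the AdCMV group and 7.84% to 28.6% in the AdVEGF group, with the highest share in AdCMV 4. RPKM is a share of the library, and the median of all 13933 transcripts tested lay at a log2 fold change of 0.38. Values are therefore also given after median-ratio scaling, which divides each library by its median ratio to the geometric mean of all libraries and leaves this median at -0.0044. All 6 hepatocyte markers were present in every library, Alb at 5864 to 19215 RPKM, and 2 of them, Apoa1 and Alb, were called higher in the AdVEGF group on the deposited scale and none after median-ratio scaling. The labels call the mice biological replicates.

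The transcripts, with mm9 positions as deposited, were Stab1 (NM_138672, chr14:31952203-31981827), Stab2 (NM_138673, chr10:86303955-86470687), Lyve1 (NM_053247, chr7:117994121-118006467), Clec4g (NM_029465, chr8:3716071-3720651), Fcgr2b (NM_010187, chr1:172890689-172906202), Oit3 (NM_010959, chr10:58885708-58904527), Gpr182 (NM_007412, chr10:127186658-127188854) and Dnase1l3 (NM_007870, chr14:8797704-8826696), all on the minus strand, and Mrc1 (NM_008625, chr2:14151041-14253650) on the plus strand. Each value covers a whole transcript. The 3' end of Stab1 overlaps Nt5dc2 on the other strand by 108 bases of genomic span. Nt5dc2 was at 19.4 ± 5.30 RPKM (SD, n = 5) in the AdCMV group and at 74.8 ± 15.9 (SD, n = 5) in the AdVEGF group. Whether the counting used strand is not given in the sources used here, so reads of this stretch could fall to either gene.

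RefSeq promoter sequences (GRCm38.p6, 250 bases before to 50 after the start) were at hand for 5 of the 9 genes, Stab1, Stab2, Clec4g, Mrc1 and Fcgr2b. A search on both strands covered 7 short strings of letters known from the motifs of transcription factors. For GATA factors these were AGATAA and the overlapping, shorter GATAA. For ETS factors they were AGGAAG and, as a longer form, CCGGAAG. The others were AACAAT for SOX factors, TGACTCA for AP-1, and the E-box CACGTG, and of all these AGGAAG was the only one found. It stood in 4 of the 5, and in 35.4% of 32851 mouse promoters of the same length. ETS factors are a family with many endothelial members, and a match of these letters is no measured site. The 4 promoters that hold it are shown so that the letters can be seen in place. Fcgr2b, whose promoter does not hold them, rose as well. AGGAAG, or CTTCCT where it lies on the other strand, is in capitals.
Stab1, chr14:31168592-31168891, minus strand: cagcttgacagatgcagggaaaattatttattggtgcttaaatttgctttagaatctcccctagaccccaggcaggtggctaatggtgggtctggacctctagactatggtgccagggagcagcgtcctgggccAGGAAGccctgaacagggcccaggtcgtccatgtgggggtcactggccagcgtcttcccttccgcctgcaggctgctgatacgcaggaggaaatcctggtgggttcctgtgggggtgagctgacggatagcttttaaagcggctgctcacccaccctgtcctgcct
Stab2, chr10:87007893-87008192, minus strand: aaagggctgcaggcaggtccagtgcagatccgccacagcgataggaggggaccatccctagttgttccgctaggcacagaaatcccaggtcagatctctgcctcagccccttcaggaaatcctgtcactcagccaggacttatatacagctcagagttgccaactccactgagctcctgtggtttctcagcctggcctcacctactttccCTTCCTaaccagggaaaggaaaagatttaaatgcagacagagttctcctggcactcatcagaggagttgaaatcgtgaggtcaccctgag
Clec4g, chr8:3720602-3720901, minus strand: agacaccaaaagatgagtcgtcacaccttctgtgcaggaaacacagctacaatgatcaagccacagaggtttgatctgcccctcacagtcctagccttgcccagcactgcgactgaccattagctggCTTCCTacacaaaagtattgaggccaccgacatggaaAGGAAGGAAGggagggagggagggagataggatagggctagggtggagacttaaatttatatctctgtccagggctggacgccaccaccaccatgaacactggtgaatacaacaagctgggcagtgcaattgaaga
Mrc1, chr2:14229164-14229463, plus strand: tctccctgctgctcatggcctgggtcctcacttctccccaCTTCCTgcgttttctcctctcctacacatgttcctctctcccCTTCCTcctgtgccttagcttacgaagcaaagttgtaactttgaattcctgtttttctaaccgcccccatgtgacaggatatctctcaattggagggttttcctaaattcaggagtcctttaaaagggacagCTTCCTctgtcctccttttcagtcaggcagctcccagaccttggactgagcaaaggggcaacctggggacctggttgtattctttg

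In the livers given AdVEGF, 8 of the 9 genes were higher, from 2.44-fold for Fcgr2b to 4.30-fold for Oit3, and Dnase1l3 was lower, at 0.508 of its level in the AdCMV group. The receptors Stab1, Stab2, Lyve1, Clec4g, Mrc1, Fcgr2b and Gpr182 and the secreted protein Oit3 were all called higher, where a call needed a Benjamini-Hochberg adjusted p under 0.05 over all transcripts in limma and a log2 fold change beyond 1 in either direction. Over all 13933 transcripts tested, 13.0% were called higher and 1.54% lower, 1808 against 214. Dnase1l3 passed the threshold on p but not that on the fold, and so none of the 9 was called lower. After median-ratio scaling, 7 genes were called higher (background 7.77%) and 1, Dnase1l3, was called lower (background 3.14%), and the split over all transcripts was 1082 against 438. With treat, which puts the threshold of 1 into the limma test itself, 3 genes (Stab1, Lyve1 and Oit3) were called higher (background 3.61%) and none lower (background 0.258%). For each of the 8 genes that rose, the lowest AdVEGF mouse was above the highest AdCMV mouse, which held for 14.3% of all transcripts tested. For Dnase1l3 the highest AdVEGF mouse was below the lowest AdCMV mouse, which held for 1.29%. Both held after median-ratio scaling too, with 8 genes above (background 10.6%) and 1 below (background 7.16%). The 9 genes had a median log2 fold change of 1.70, beside 0.38 for all transcripts, and of 1.30 beside -0.0044 after median-ratio scaling. In RNA of whole liver, a change in the number of sinusoidal cells and a change in the RNA of a gene per cell cannot be told apart.

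**Figure D1:**
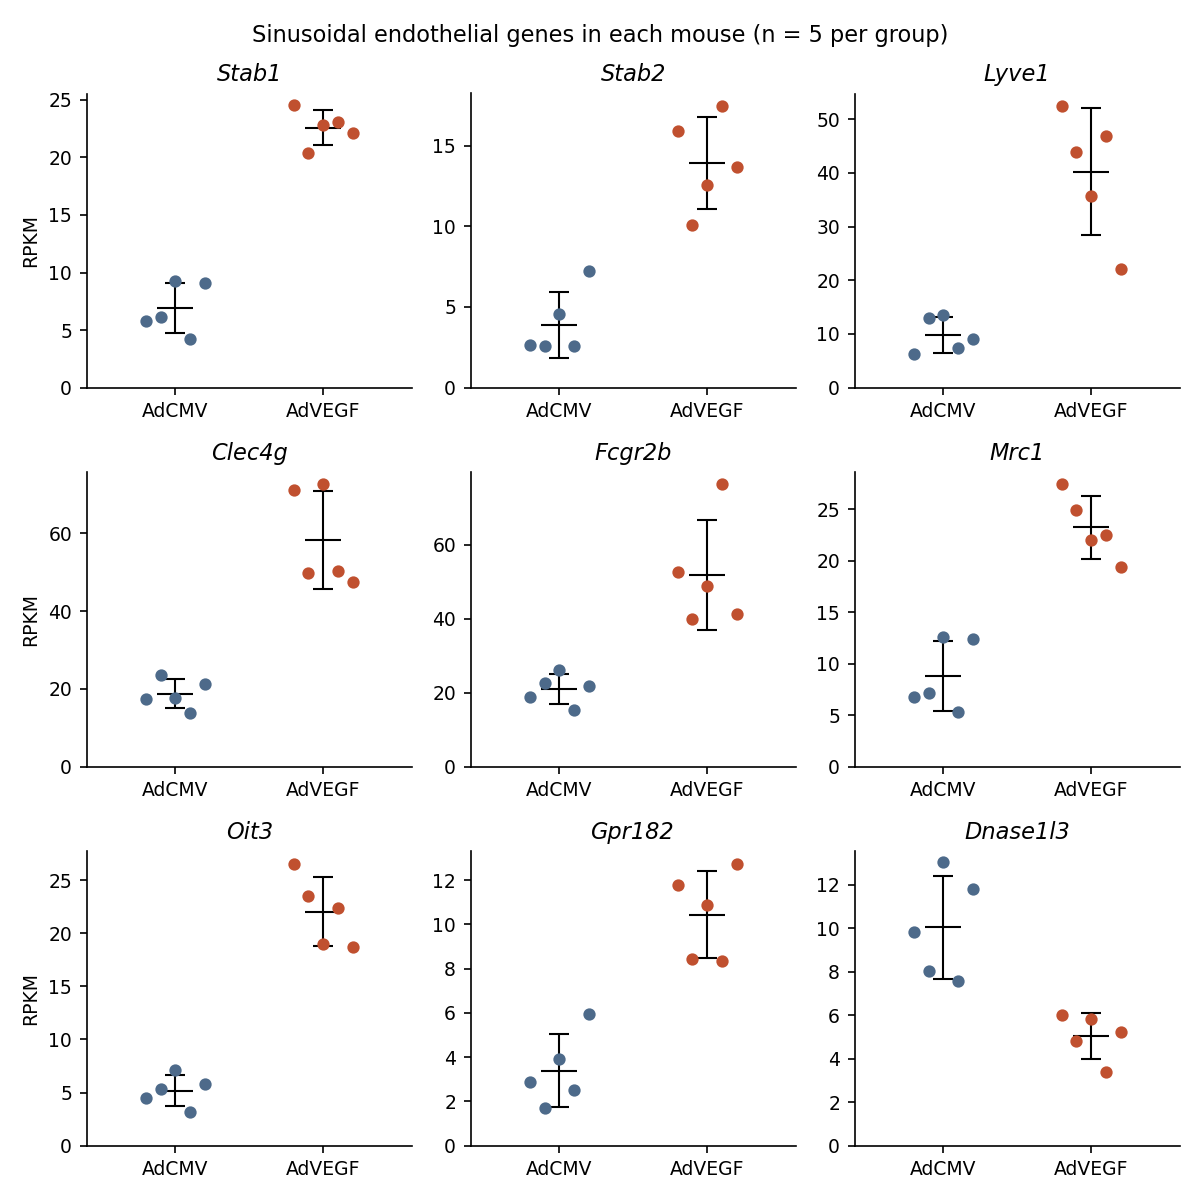
RPKM (linear axes from 0) of the 9 genes in each of the 5 AdCMV mice (blue) and the 5 AdVEGF mice (red), with the mean and SD of each group in black and the mice from replicate 1 to 5 from left to right. In 8 panels every AdVEGF mouse lies above every AdCMV mouse, and in the panel of Dnase1l3 every AdVEGF mouse lies below.

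Stab1 and Stab2 encode the stabilins, large scavenger receptors that recycle between the surface and the endosomes. Stab1 takes up modified lipoproteins and matrix fragments and is also made by macrophages, while Stab2 is the main clearance receptor for hyaluronan in the blood. In AdCMV mice 1 to 5, Stab1 was at 5.77, 6.13, 9.27, 4.26 and 9.07 RPKM, and in AdVEGF mice 1 to 5 at 24.5, 20.4, 22.8, 23.1 and 22.1 RPKM. The 5 AdVEGF livers were close to each other, at 22.6 ± 1.51 RPKM (SD, n = 5), while the AdCMV livers varied more, at 6.90 ± 2.19 (SD, n = 5), with the lowest in AdCMV 4, the library with the largest Mup share. The log2 fold change of Stab1 was 1.75 (SE 0.22, limma adjusted p = 1.57e-05), and 1.36 after median-ratio scaling (adjusted p = 6.09e-06), where the AdCMV livers lay at 7.65 ± 0.970 RPKM (SD, n = 5). Stab2 was at 2.64, 2.56, 4.53, 2.58 and 7.24 RPKM in the AdCMV mice and at 15.9, 10.1, 12.5, 17.4 and 13.7 RPKM in the AdVEGF mice. AdCMV 5 was the highest control and still lay below the lowest AdVEGF liver. For Stab2 the log2 fold change was 1.91 (SE 0.28, limma adjusted p = 8.18e-05), and 1.52 after median-ratio scaling (adjusted p = 0.000387).

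Lyve1, a hyaluronan-binding receptor of sinusoidal and lymphatic endothelium, was at 6.22, 12.9, 13.5, 7.30 and 9.09 RPKM in the AdCMV mice. The AdVEGF mice had 52.5, 43.9, 35.8, 46.8 and 22.1 RPKM. AdVEGF 5 was well under the other AdVEGF livers, yet above each control. It also had the largest Mup share of its group, and after median-ratio scaling it was still the lowest, at 22.2 RPKM. The log2 fold change was 2.03 (SE 0.27, limma adjusted p = 2.51e-05), or 1.63 after median-ratio scaling (adjusted p = 0.000166). Of the 6 genes listed as markers of lymphatic endothelium, 4 passed the filter and 2, Flt4 and Reln, were called higher on both scales (background 13.0% and 7.77%). Sinusoidal endothelium is known to make the first and stellate cells the second. Prox1, the transcription factor that sets lymphatic identity and is also made by hepatocytes, was at 6.61 ± 2.66 and 7.25 ± 2.57 RPKM (SD, n = 5 each). Ccl21a went from 2.34 ± 0.843 to 4.73 ± 2.16 RPKM (SD, n = 5 each). Its log2 fold change was 0.97 (limma adjusted p = 0.0334), and 0.58 after median-ratio scaling, and it was not called. The count called higher was 0 with treat, 3 with voom on the recovered reads and 2 to 3 without 1 mouse. Mmrn1, named outside the rule for named genes, was listed at 0 in all 10 libraries. The list summed to 8.87 to 22.7 RPKM in AdCMV livers and to 23.0 to 33.6 RPKM in AdVEGF livers. The part of lymphatic endothelium in the rise of Lyve1 was not tested.

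Clec4g, also known as LSECtin, is a C-type lectin that marks sinusoidal endothelium and binds glycans of viruses and of activated T cells. It was at 17.5, 23.7, 17.7, 13.9 and 21.1 RPKM in the AdCMV livers and at 71.1, 49.8, 72.7, 50.3 and 47.5 RPKM in the AdVEGF livers. The groups were far apart, and within the AdVEGF group replicates 1 and 3 stood above the other 3. Clec4g had a log2 fold change of 1.63 (SE 0.21, limma adjusted p = 1.67e-05), and of 1.23 after median-ratio scaling (adjusted p = 0.000389).

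Mrc1, the mannose receptor, takes up glycoproteins with mannose ends, lysosomal enzymes and denatured collagen, and is made by sinusoidal endothelium and by macrophages. Its levels were 6.71, 7.14, 12.6, 5.32 and 12.4 RPKM in the AdCMV mice and 27.4, 24.9, 22.0, 22.5 and 19.4 RPKM in the AdVEGF mice. On the deposited scale, replicates 3 and 5 of the AdCMV group were above the other 3 controls, as they were for Stab1. These libraries had the smallest Mup shares of the group, 18.0% and 32.4%. After median-ratio scaling the pattern held for Mrc1, but for Stab1 AdCMV 3, at 7.60 RPKM, lay below AdCMV 2, at 7.65. The log2 fold change of Mrc1 was 1.46 (SE 0.24, limma adjusted p = 0.000285), and 1.06 after median-ratio scaling (adjusted p = 0.000138), just past the threshold of 1. With library totals taken without the Mup reads it was 0.96, and Mrc1 was not called.

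Fcgr2b encodes the inhibitory Fc gamma receptor, by which sinusoidal endothelium takes up small immune complexes, and which B cells and macrophages also make. It was the highest of the 9 genes in the controls, at 18.8, 22.5, 26.2, 15.3 and 21.8 RPKM. In the AdVEGF mice it was at 52.8, 39.8, 48.7, 76.5 and 41.3 RPKM, with AdVEGF 4 above the rest of its group. Fcgr2b rose least of the 8, with a log2 fold change of 1.29 (SE 0.22, limma adjusted p = 0.000327). Median-ratio scaling left it at 0.89 (adjusted p = 0.00183), below the threshold of 1 and no longer called. Of the 5 other genes for Fc gamma receptors and their partners, Fcgr3, the activating low-affinity receptor of macrophages and other myeloid cells, was called higher (1.13, adjusted p = 0.00149) and was not called after median-ratio scaling (0.73). Fcer1g, the signalling chain of the activating receptors, had a log2 fold change of 0.48, Fcgrt, which recycles IgG, had 0.45 and Fcgr4 had 0.31, none of them called.

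Macrophages, which also make Stab1, Mrc1 and Fcgr2b, and B cells, which also make Fcgr2b, were looked at beside these genes. Of 13 Kupffer cell genes tested, 4 were called higher (background 13.0%), Clec4f (2.15), Vsig4 (2.14), Folr2 (1.57) and Csf1r (1.18). The first 3 were called after median-ratio scaling too (background 7.77%). The rest, which include the genes with the highest levels of the list, were not called. The list had a median log2 fold change of 0.77, none of its genes was at 0 in any library, and its summed level was 187 to 383 RPKM in AdCMV livers and 367 to 569 RPKM in AdVEGF livers. Of 4 B cell genes tested, Cd79b (2.36) and Ms4a1 (1.74) were called higher, Cd79b alone after median-ratio scaling, beside the same backgrounds. The count was 1 without AdVEGF 2 and with a pseudocount of 1, and 3 without some other mice. The B cell genes were low in both groups, with sums of 1.35 to 2.17 and 3.67 to 9.12 RPKM. Pax5, named outside the rule for named genes, was listed at 0 in all 5 AdCMV libraries. The part of macrophages in the rise of the 3 receptors, and that of B cells in the rise of Fcgr2b, was not tested.

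Oit3 encodes a secreted protein with a zona pellucida domain that is made almost entirely in the liver. The AdCMV livers had 4.44, 5.37, 7.08, 3.22 and 5.78 RPKM, and the AdVEGF livers had 26.5, 23.5, 19.0, 22.4 and 18.7 RPKM. No AdVEGF liver came near the controls. Oit3 rose most of the 9 genes, with a log2 fold change of 2.10 (SE 0.22, limma adjusted p = 2.54e-06) and of 1.71 after median-ratio scaling (adjusted p = 1.97e-06).

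Gpr182, a G protein-coupled type of receptor that binds chemokines and is found on sinusoidal and lymphatic endothelium, was the lowest of the 9 in the controls. It was at 2.86, 1.71, 3.91, 2.51 and 5.96 RPKM there and at 11.8, 8.45, 10.9, 8.37 and 12.7 RPKM in the AdVEGF livers. Its counts were also the smallest, from 35 to 58 reads in the AdCMV libraries, where counting error alone reaches 16.9% at 35 reads. The log2 fold change was 1.70 (SE 0.28, limma adjusted p = 0.000268), and 1.30 after median-ratio scaling (adjusted p = 0.00212).

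Dnase1l3, a secreted nuclease that cuts the DNA of chromatin fragments in the blood, went the other way. It was at 9.81, 8.02, 13.0, 7.56 and 11.8 RPKM in the AdCMV mice and at 5.98, 4.82, 5.81, 3.37 and 5.24 RPKM in the AdVEGF mice. The highest AdVEGF liver lay below the lowest control, and AdVEGF 4 had the least Dnase1l3. The group means were 10.0 ± 2.37 and 5.04 ± 1.05 RPKM (SD, n = 5 each), on 251 to 399 and 101 to 132 reads. On the deposited scale the log2 fold change was -0.98 (SE 0.22, 95% interval -1.45 to -0.51, limma adjusted p = 0.00424), just inside the threshold of -1. Leaving out AdCMV 2, AdCMV 4, AdVEGF 1 or AdVEGF 3 moved it past the threshold, to between -1.03 and -1.07. After median-ratio scaling it was -1.37 (SE 0.16, adjusted p = 6.57e-05) and was called lower. Of 5 other genes of DNA breakdown tested, none was called. Dnase2a, the lysosomal DNase, had a log2 fold change of 0.64, Trex1 of 0.07, Dnase1 of 0.14 and Dnase2b of -0.10.

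**Figure D2:**
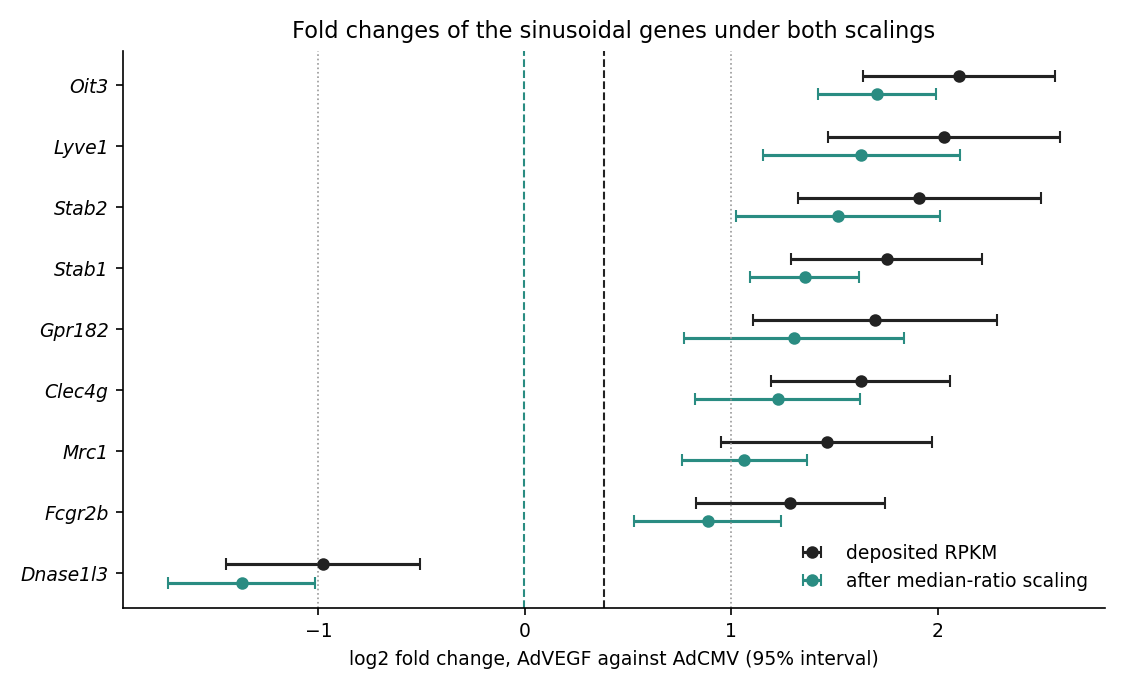
Log2 fold change of AdVEGF over AdCMV (x axis) with its 95% interval from limma for each of the 9 genes, from the deposited RPKM (black) and after median-ratio scaling (green), n = 5 mice per group. Dashed lines mark the median of all transcripts tested, 0.38 and -0.0044, dotted lines mark log2 fold changes of 1 and -1, and Dnase1l3 is the only gene to the left of 0.

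The order of the 9 genes by RPKM, a level per length of transcript, was Fcgr2b, Clec4g, Dnase1l3, Lyve1, Mrc1, Stab1, Oit3, Stab2 and Gpr182 in the AdCMV group. Neighbours in this order overlapped over the mice in every case but 1, Clec4g against Dnase1l3. In the AdVEGF group the order was Clec4g, Fcgr2b, Lyve1, Mrc1, Stab1, Oit3, Stab2, Gpr182 and Dnase1l3, and the neighbours whose ranges did not overlap were Oit3 against Stab2 and Gpr182 against Dnase1l3. Dnase1l3 went from the 3rd place to the last.

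A ratio of 2 genes within a library does not depend on the scaling between libraries. Dnase1l3 was at 3.72, 3.14, 2.88, 2.93 and 1.63 times the level of Stab2 in the AdCMV mice and at 0.377, 0.477, 0.463, 0.193 and 0.383 times in the AdVEGF mice. Every AdCMV liver thus had more Dnase1l3 than Stab2, and every AdVEGF liver less. The log2 ratio differed by -2.93, given with no test, since both genes separated the groups in opposite directions already. For the ratios between genes that rose the difference did not pass. Stab2 over Stab1 went from 0.538 to 0.607 (exact permutation test, two-sided, p = 0.389, adjusted p = 0.69 over 3 ratios), Lyve1 over Stab2 from 2.63 to 2.82 (exact p = 0.778, adjusted p = 0.778) and Fcgr2b over Mrc1 from 2.48 to 2.18 (exact p = 0.46, adjusted p = 0.69). The 4 ratios were chosen with the levels known.

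Genes listed here as pan-endothelial rose as well, most of them by more than the 9 genes. How evenly the endothelia of different vessels make them was not tested. All 14 pan-endothelial genes tested were called higher on both scales (background 13.0% and 7.77%), with a median log2 fold change of 2.61. The largest rises were those of Cldn5 (3.19), a tight junction protein, Esam (3.17), an adhesion molecule, Tie1 (3.02), a receptor kinase, and Ramp2 (2.74), a partner of the adrenomedullin receptor. The summed level of the 14 was 53.2 to 96.6 RPKM in AdCMV livers and 350.2 to 480.3 RPKM in AdVEGF livers. To set the sinusoidal genes against them, the mean log2 level of the 14 was subtracted from every transcript in each mouse, and the limma fit was repeated. None of the 9 genes was then called higher (background 0.380%) and 2, Dnase1l3 and Fcgr2b, were called lower, while 91.3% of all transcripts were called lower on this scale. Dnase1l3 was at -3.42 (SE 0.19, adjusted p = 1.18e-08) and Fcgr2b at -1.16 (SE 0.17, adjusted p = 1.83e-05), beside a median of -2.06 for all transcripts. The count called lower was 5 with Cdh5, Erg, Tie1 and Egfl7 alone as the reference (Clec4g, Mrc1 and Gpr182 besides), and 1, Dnase1l3, with a pseudocount of 1 and 3, with Mrc1, with a pseudocount of 0.01.

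Mrc1 (-0.98, adjusted p = 3.14e-05), Clec4g (-0.82, adjusted p = 0.00146), Gpr182 (-0.75, adjusted p = 0.00511), Stab1 (-0.69, adjusted p = 0.000138) and Stab2 (-0.53, adjusted p = 0.0126) rose less than the pan-endothelial mean. These differences in rise were smaller than the threshold of 1, with p under 0.05 in limma. For Lyve1 the difference was -0.42 (95% interval -0.95 to 0.12, adjusted p = 0.122) and for Oit3 -0.34 (95% interval -0.70 to 0.01, adjusted p = 0.0612), so neither passed here. With the 4 reference genes both had p under 0.05, at -0.67 (adjusted p = 0.0497) for Lyve1 and -0.60 (adjusted p = 0.0123) for Oit3, and Oit3 also did without AdCMV 4, AdCMV 5, AdVEGF 1 or AdVEGF 2 (adjusted p = 0.0316 to 0.0473). In the separate mice, the relative level of Dnase1l3 was 1.20 to 1.65 in the AdCMV group and -2.76 to -1.79 in the AdVEGF group. Dnase1l3, Fcgr2b, Mrc1, Clec4g and Stab1 did not overlap between the groups, 5 of 9 genes where 87.9% of all transcripts were lower in every AdVEGF mouse. The pan-endothelial genes themselves spread widely. Ptprb (1.41), Tek (1.43) and Eng (1.50), named here with their values known, had smaller log2 fold changes than Stab1, Stab2, Lyve1, Clec4g, Oit3 and Gpr182, a difference that was not tested, so a smaller rise than the mean of the list does not hold against each of its genes.

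**Figure D3:**
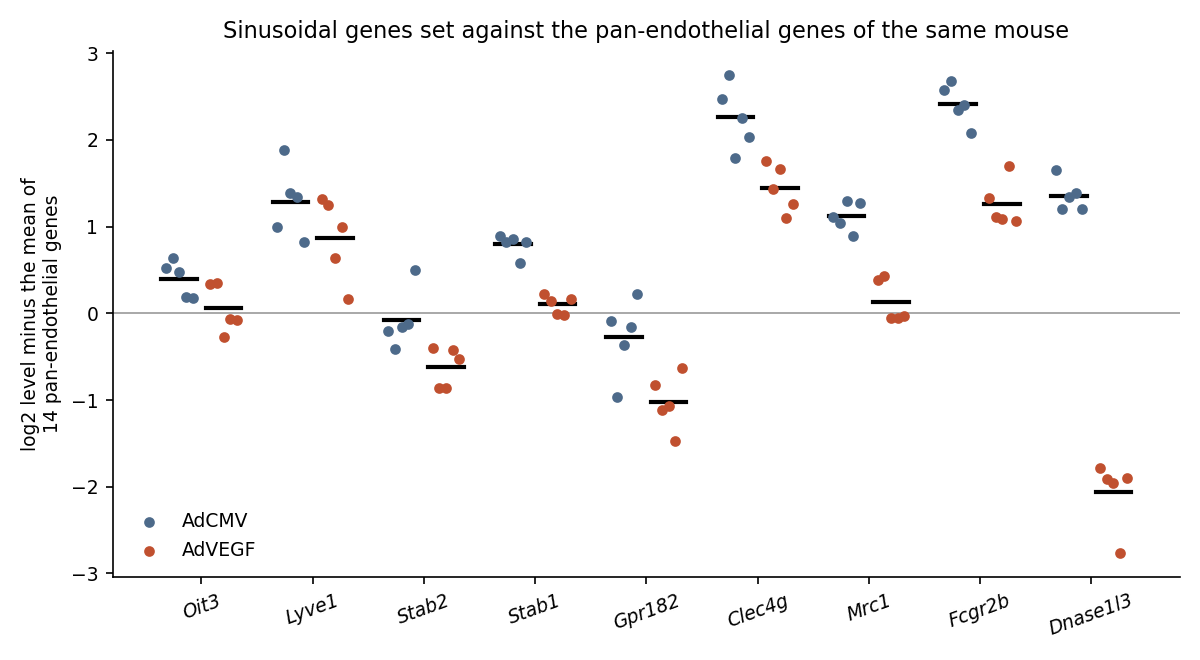
Log2(RPKM + 0.1) of each of the 9 genes minus the mean of 14 pan-endothelial genes in the same mouse (y axis), for the 5 AdCMV mice (blue) and the 5 AdVEGF mice (red), with group means as black bars. Dnase1l3 falls from between 1.20 and 1.65 to between -2.76 and -1.79, and the groups overlap for Oit3, Lyve1, Stab2 and Gpr182.

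Other genes known from sinusoidal endothelium were mixed. Of 14 tested, 10 were called higher and 1 lower, with a median log2 fold change of 1.33, and 6 higher and 2 lower after median-ratio scaling. The largest rises were those of Kdr (2.78), the main VEGF receptor of endothelium, Meis2 (2.62), a homeobox factor, Ehd3 (2.49), which works in endosomal recycling, and Bmp2 (2.08), a ligand by which sinusoidal cells raise hepcidin in hepatocytes. The genes that went the way of Dnase1l3, named with their values known, were Wnt2, a ligand that sinusoidal cells give to hepatocytes, and F8, clotting factor VIII. Wnt2 went from 0.745 ± 0.140 to 0.135 ± 0.0786 RPKM (SD, n = 5 each), and was called lower (adjusted p = 0.00205), on 1 to 3 reads in each AdVEGF library, but not with a pseudocount of 1. F8 went from 5.69 ± 1.21 to 3.09 ± 0.995 RPKM (SD, n = 5 each), a log2 fold change of -0.89 (adjusted p = 0.015), which was called lower after median-ratio scaling (-1.29, adjusted p = 0.000217). Without AdVEGF 4 the count called lower was 2 on the deposited scale.

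Genes of continuous capillaries covered a wider range than the 9. Of 10 tested, 6 were called higher (background 13.0%) and none lower, and 5 higher after median-ratio scaling (background 7.77%). The log2 fold changes were 7.14 for Esm1, 5.84 for Cd34 and 5.33 for Emcn, above that of any of the 9 sinusoidal genes. Esm1, which endothelial tip cells secrete, went from 0.324 ± 0.153 to 56.2 ± 5.43 RPKM (SD, n = 5 each), the level of Clec4g in the same livers. Aplnr, the apelin receptor, was listed at 0 in all AdCMV libraries and was at 1.17 ± 0.391 RPKM (SD, n = 5) in the AdVEGF group. The 4 genes not called, which are outside the rule for named genes, were Vwf (-0.19), Ly6c1 (-0.34), Cd9 (0.29) and Rgcc (1.55). Relative to the pan-endothelial genes, 4 genes of the list were called higher (background 0.380%) and 4 lower (background 91.3%). Stellate cells lie against the sinusoids, and 6 of their 7 genes were called higher on both scales (background 13.0% and 7.77%). The summed level of the stellate cell genes was 22.6 to 37.5 RPKM in AdCMV livers and 83.3 to 140.5 RPKM in AdVEGF livers.

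Of 16 other scavenger and endocytic receptors tested, 5 were called higher, where the background was 13.0%, among them Scarf2 (1.81), Cd36 (1.46), Scarf1 (1.42) and Mrc2 (1.28). Ly75 (-1.09), a lectin of the family of Mrc1, was the 1 called lower and is named outside the rule for named genes. The 16 had a median of 0.50, and with median-ratio scaling the calls were 3 higher (background 7.77%) and 1 lower. The count called higher was 3 without AdCMV 1 or AdVEGF 1, 2 with a pseudocount of 1, 1 with library totals without Mup reads and 0 with treat, and Ly75 was not called without AdCMV 3. Of 18 genes of clathrin endocytosis and the lysosome, Ehd3 and Dab2 (1.85), a clathrin adaptor, were called higher on both scales (background 13.0% and 7.77%). The median of 0.37 was that of all transcripts (0.38). Lamp1, a lysosomal membrane protein, and Ctsl, a cathepsin, had the highest levels of the list and were not called. Of 10 genes of hyaluronan and glycosaminoglycan turnover, Tmem2 (1.71), a cell surface hyaluronidase, was called higher (2 genes without AdCMV 5), while Hexa, Hyal1 and Hyal2 had log2 fold changes of 0.45, 0.29 and 0.52 and were not called.

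**Figure D4:**
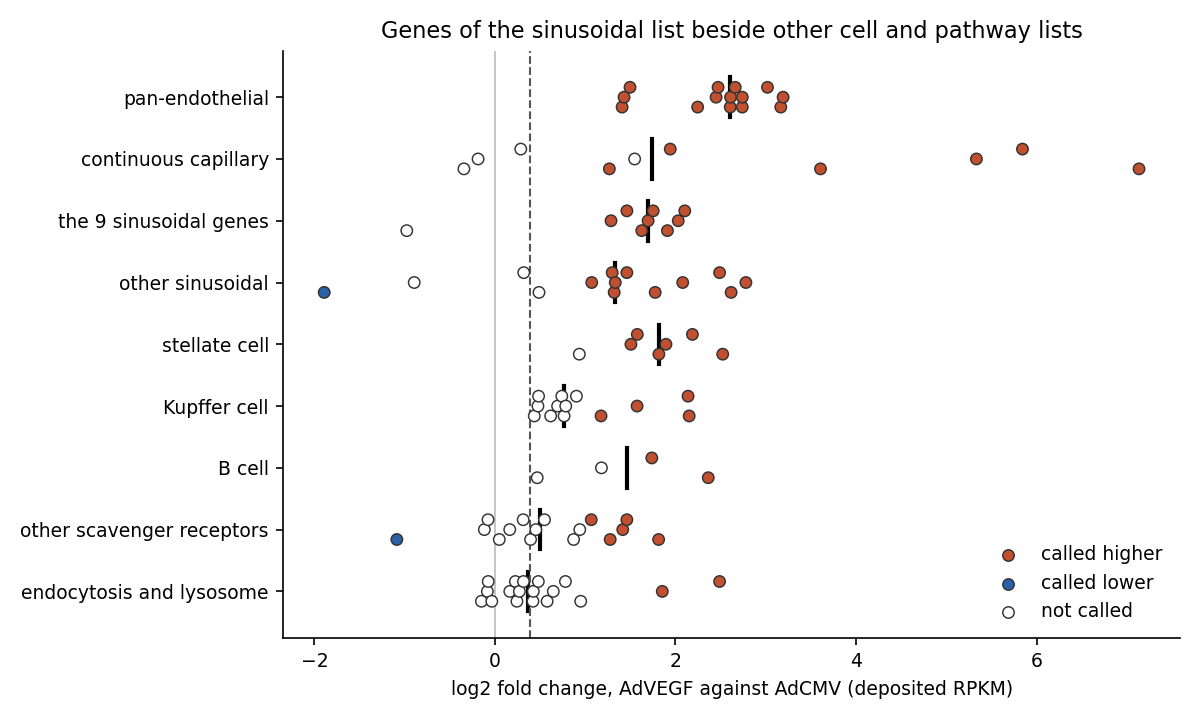
Log2 fold change of AdVEGF over AdCMV from the deposited RPKM (x axis) for each gene tested in 9 lists, with genes called higher in red, called lower in blue and not called in white, and the median of each list as a black bar. The dashed line is the median of all transcripts, 0.38, and the 9 sinusoidal genes, with a median of 1.70, lie below most pan-endothelial genes (median 2.61), with Dnase1l3 alone below 0. Aplnr is listed at 0 in the AdCMV libraries, so its point at 3.61 depends on the pseudocount.

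The transcripts closest to each gene over the 10 mice were found by Pearson r of the log2 level after median-ratio scaling, as a description. The groups differ, so r mostly carries the step between them. The 3 closest had r of 0.965 to 0.997. They were Pxdn, Rgs3 and the endothelial cadherin Cdh5 for Stab1, Arhgap1, Adamts2 and Cdc42ep1 for Stab2, and Kcnj8, Ggh and Sparcl1 for Lyve1. For Clec4g they were Sncaip, Plac9a and Plac9b, a near-identical pair, for Mrc1 Tbx20, Col6a3 and Eln, and for Fcgr2b Itm2c, Capg and Clic1. Oit3 was closest to Cd24a, Tiam1 and Sparc, and Gpr182 to Sema5a, Bmpr2 and Tcaf1. Dnase1l3 had another set, Pcsk6, Bche and Opa1, and no transcript stood among the 3 closest of 2 of the genes.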

How the data were processed

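Liver RNA was depleted of ribosomal RNA and sequenced from 5 AdCMV and 5 AdVEGF mice. The submitters' processing notes name TopHat, HOMER and the mm9 build. The authors deposited RPKM values for 24016 RefSeq transcripts in each mouse, normalised to the mapped reads of the library. Their own log fold changes and FDR values in the same table were not used. Whether counting used strand is not given in the sources used here.

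From the RPKM values, the reads behind each value and the library totals were recovered, since 99.9877% to 100% of the values checked in a library came out whole within 0.1 reads. The 5 rows with no gene symbol, at most 0.00534% of a library's reads, were left out. Reads summed over transcripts exceeded the totals by 2.31% to 13.9%, so some were counted on more than 1 transcript. Floors of 3 reads cover counting error only. The intervals of the log2 fold changes come from limma and rest on the variance between mice.

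The 13933 transcripts whose mean exceeded 0.5 RPKM in the AdCMV or the AdVEGF group entered limma (version 3.58.1, R 4.3.3, eBayes with a trend) as log2(RPKM + 0.1), and fold changes on this scale understate those of low genes. Calls needed a Benjamini-Hochberg adjusted p under 0.05 over all transcripts and a log2 fold change beyond 1 in either direction. These thresholds follow the study's methods, where the text used here gives no test for this step. The scripts were tested on simulated data. The 9 genes, the 13 other lists and the ratios were chosen with earlier results of these data known. Named genes are the 9, at most 4 per other list (the largest changes among those called, else the highest levels) and the 3 closest in pattern. A gene named outside this rule is said to be so. The alternatives were other scalings, pseudocounts, filters and tests, a single row for each gene symbol, a block for the replicate number, and fits without 1 mouse at a time. The p-values of limma set the difference between the groups against the variance between mice, which eBayes draws toward a trend over all transcripts. Emr1 is an older symbol of Adgre1, Ighm was not analysed here, and 2 further genes of the lists are not reported here.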

Additional observations from a re-analysis of the deposited data

How the results depend on the processing

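The 8 rises kept their direction under all 22 alternatives, and 8 genes were called higher in every fit but those with median-ratio scaling, upper quartile scaling and voom after median-ratio scaling (7 each), library totals without Mup reads (6) and treat (3). The number called lower was 0, and 1, Dnase1l3, after median-ratio scaling, after upper quartile scaling, with library totals without Mup reads and with voom on the recovered reads after median-ratio scaling. The latter 2 alternatives were chosen after seeing the data. Leaving out 1 mouse at a time gave 0 to 1 called lower, 1 without AdCMV 2, AdCMV 4, AdVEGF 1 or AdVEGF 3, and 8 called higher each time. Relative to the pan-endothelial genes, 2 were called lower, 5 with 4 reference genes (Cdh5, Erg, Tie1 and Egfl7), 1 with a pseudocount of 1, 3 with one of 0.01, and 2 to 3 without 1 mouse (3, with Mrc1, without AdCMV 2, AdCMV 4, AdVEGF 1 or AdVEGF 2). Adjusted p values of Lyve1 and Oit3 on that scale fell under 0.05 with the 4 reference genes. The cause of these changes was not tested. With the replicate number as a block, 8 genes were called higher and 0 lower, and 2 lower relative to the pan-endothelial genes, the same counts as without it, while the adjusted p of the relative difference became 0.0374 for Lyve1 and 0.0297 for Oit3. Without that reference, the limma adjusted p of every gene was smaller with the block, for Stab2 6.54e-07 against 8.18e-05. The deviations of same-numbered mice correlated at 0.036, 0.109, 0.0076, 0.096 and 0.291 for numbers 1 to 5. Of 10 mice, 4 correlated best with their own number. What same-numbered mice share beyond the number is not given in the labels and was not tested. Depth limits Gpr182 and Wnt2.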
